A study of Mus musculus with 12 samples.

Results

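Hox genes code for transcription factors that bind DNA through a homeodomain. In the mouse they lie in 4 clusters, Hoxa on chromosome 6, Hoxb on chromosome 11, Hoxc on chromosome 15 and Hoxd on chromosome 2. Within a cluster they are numbered by paralog group, and genes with the same number in different clusters descend from one ancestral gene. In the embryo, genes with low numbers are switched on first and furthest towards the head, and genes with high numbers later and nearer the tail. Fibroblasts of adult organs are known to keep a part of this pattern in culture, so that the set of Hox genes in use differs between body sites.

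All rows named Hoxa, Hoxb, Hoxc or Hoxd with a number from 1 to 13 were taken, which gave 39 genes of the 57683 in the table of polyadenylated RNA. Antisense and opposite-strand rows were left out. Hoxa has 11 of these genes, Hoxb 10, Hoxc 9 and Hoxd 9. The choice used names alone and no measured value.

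RNA came from the hearts of 3 wild-type female mice of the inbred strain FVB/NJ, aged 12 weeks. Cardiomyocytes, the contracting muscle cells, were freed with collagenase and their RNA was taken at once. Nonmyocytes, the rest of the heart's cells, were grown in culture first and are described as largely fibroblasts. The labels differ on that culture, one naming a first-passage culture and the other 2 passages, and cell type cannot be told apart from culture in any comparison here. Each fraction gave 3 libraries of polyadenylated RNA and 3 of small RNA, from whole hearts with no record of position. Levels are CPM, counts scaled to a common library size and corrected by TMM (trimmed mean of M-values) factors, and fold changes are log2 of cardiomyocytes over nonmyocytes with their standard error (SE).

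Total counts of polyadenylated RNA ran from 5956831 to 26851830 in cardiomyocytes and from 8126422 to 10792544 in nonmyocytes. A floor of 3 counts over all 3 libraries equalled 0.0665 CPM in cardiomyocytes and 0.0819 CPM in nonmyocytes, and covers counting error only. The labelled cell types were checked with markers. All 8 cardiomyocyte markers were higher in cardiomyocytes, and their summed level in nonmyocytes was 0.694% of that in cardiomyocytes. Of 9 fibroblast markers, 8 were lower in cardiomyocytes and the other, Lum, was too low to test, with 55 counts in cardiomyocytes and 18 in nonmyocytes. Of 7 endothelial markers, 5 were higher in cardiomyocytes, with sums of 360 to 755 CPM, against 77.3 to 88.5 CPM in nonmyocytes. The endothelial marker Pecam1 stood at 0 in nonmyocytes, but 81.1% of its exon bases are shared with other annotated genes. Of 6 smooth muscle and pericyte markers, 3 were higher and 3 lower in cardiomyocytes, with sums of 608 to 1077 CPM in cardiomyocytes and 5946 to 7464 CPM in nonmyocytes. Most of the nonmyocyte sum was Acta2, at 7157, 5683 and 6230 CPM. The other 2 that were lower were Myh11 and Cnn1. Rgs5, Kcnj8 and Abcc9 were higher, with means of 142, 14.3 and 337 CPM in cardiomyocytes, against 4.16, 0.114 and 2.10 CPM in nonmyocytes. Of 5 epicardial markers, 3 were lower, with sums of 9.43 to 17.6 CPM in cardiomyocytes and 27.1 to 34.2 CPM in nonmyocytes. Of 7 macrophage markers, 1 was higher and 2 lower, with sums of 40.1 to 48.7 CPM in cardiomyocytes and 90.0 to 100.4 CPM in nonmyocytes. Red blood cell markers summed to 599, 86.0 and 11.9 CPM in cardiomyocyte libraries 1 to 3, and to 0.776 to 2.61 CPM in nonmyocytes. The part of these cell types in the Hox differences was not tested.

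Sequences are shown for the microRNAs of the miR-10 family, which lie inside the Hox clusters, because their 5p arms were abundant in both fractions. Capitals mark the seed, bases 2 to 8, through which a microRNA pairs with its targets. The sequences are those of RefSeq for GRCm38.p6.
miR-10a-5p: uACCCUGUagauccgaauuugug
miR-10b-5p: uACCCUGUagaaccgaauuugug
Both have 23 bases and the same seed, and they differ by U12A, counted from the 5′ end with miR-10a-5p first. The letters ACAGGGT, which pair with that seed, were sought after the stop codon of all 39 Hox genes in GENCODE release 21 for mouse. They were found in 4 of them, or 10.3%, against 13% of 20998 coding genes. For 3 genes the match is shown in capitals with the bases around it.
Hoxa3: tttgataagaaACAGGGTatatgaacaaa
Hoxb3: ttaacgtgaaaACAGGGTatatttgaaca
Hoxd1: ggaacaaatccACAGGGTaggtaaggatt
Hoxa3 lies on chromosome 6, Hoxb3 on chromosome 11 and Hoxd1 on chromosome 2. A match is a description of the letters and was not tested as a site of action.

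Hox RNA was mostly found in nonmyocytes. The 39 genes summed to 5.42, 7.98 and 7.56 CPM in cardiomyocyte libraries 1 to 3, and to 129, 93.9 and 91.0 CPM in nonmyocyte libraries 1 to 3. The highest cardiomyocyte library thus lay far below the lowest nonmyocyte library, and the cardiomyocyte mean was 6.68% of the nonmyocyte mean. In nonmyocytes 14 Hox genes reached 1 CPM in every library. In cardiomyocytes only Hoxb4 did so. At the other end, 20 Hox genes had no count in any cardiomyocyte library and 9 had none in any nonmyocyte library, with 8 at 0 in both. In bulk RNA, fewer cells that make a transcript and less RNA per cell cannot be told apart.

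**Figure D1:**
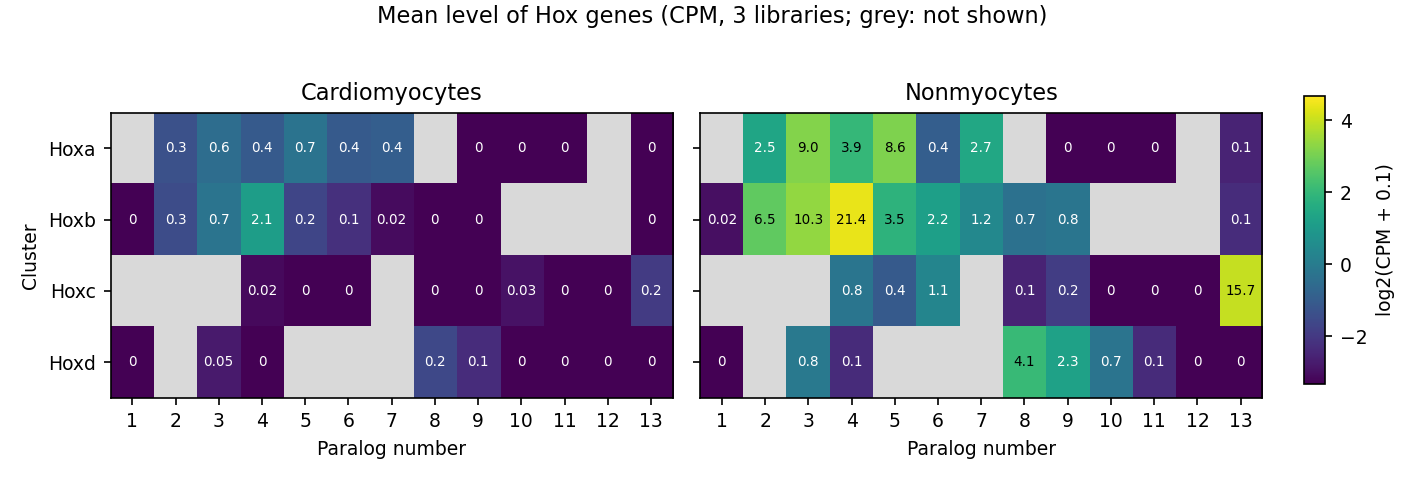
Mean level in CPM of Hox genes (number in the cell) by cluster (rows) and paralog number (columns), in cardiomyocytes (left) and nonmyocytes (right); colour is log2(CPM + 0.1) and grey marks a combination that is not shown. Nonmyocyte RNA fills most of Hoxa and Hoxb up to paralog number 7, apart from Hoxa6 and Hoxb1, and Hoxc13 stands alone at 15.7 CPM, while Hoxb4 at 2.07 CPM is the highest cell in cardiomyocytes.

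Low counts were filtered out before testing, which left 14 Hox genes, among them Hoxa2, Hoxa3, Hoxa4, Hoxa5, Hoxa7, Hoxb2, Hoxb3, Hoxb4, Hoxb5, Hoxb6, Hoxc13, Hoxd8 and Hoxd9. All 14 of these were lower in cardiomyocytes (adjusted p under 0.05 in edgeR's quasi-likelihood test), where 32.1% of all genes tested were lower. None was higher, against 31.6% of all genes tested, and none was higher at an unadjusted p under 0.05, with DESeq2 or with limma voom. In each of the 14 the 3 cardiomyocyte libraries lay below the 3 nonmyocyte libraries, as they did for 36.3% of all genes tested. Apart from Hoxb4, which also reached 1 CPM in every cardiomyocyte library, these genes passed the filter through their nonmyocyte levels. That favours lower calls, fractions without overlap and negative fold changes, while genes in general could pass through either fraction. The 14 therefore do not speak for the 25 others, and the values over all genes are not a like comparison. The log2 fold changes of the 14 ran from -6.57 to -2.47 with a median of -3.66, beside a median of -0.02 over all genes tested.

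Hoxb4 had the most counts of all Hox genes in both fractions. It held 2.91, 1.71 and 1.60 CPM in cardiomyocytes, against 28.3, 18.4 and 17.6 CPM in nonmyocytes. The first library was highest in each fraction, and the fractions lay far apart. Hoxb4, known for its use in expanding blood stem cells, lies on chromosome 11 (96180011 to 96182952, mm9). Its log2 fold change was -3.47 ± 0.35 (SE, edgeR adjusted p = 1.94e-06), and none of its exon bases is shared with another annotated gene.

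Hoxc13 showed the largest fold change of the Hox genes. This gene is known for its role in hair follicles and nails, and lies on chromosome 15 (102751562 to 102759245, mm9) at the high-numbered end of its cluster. It held 0.194, 0.155 and 0.145 CPM in cardiomyocytes, which is 1, 3 and 3 counts, against 15.3, 17.8 and 14.05 CPM in nonmyocytes. The nonmyocyte libraries lay close together, with a coefficient of variation of 12.1%. The log2 fold change was -6.57 ± 0.44 (SE, edgeR adjusted p = 3.19e-08). Hoxc13 took 11.9%, 18.9% and 15.4% of all Hox counts in nonmyocyte libraries 1 to 3. Its nearest neighbours in the cluster, Hoxc12, Hoxc11 and Hoxc10, had no count in any nonmyocyte library, and Hoxc12 begins 7.94 kb away. The libraries did not keep the strand, so a transcript running against Hoxc13 would be counted with it.

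Hoxb3 and Hoxb2, which help to pattern the hindbrain in the embryo, stood beside Hoxb4. Hoxb3 held 0, 1.19 and 1.02 CPM in cardiomyocytes, against 10, 10.8 and 10.2 CPM in nonmyocytes. Its nonmyocyte libraries were the most even of the Hox genes tested, with a coefficient of variation of 4.205%, and its log2 fold change was -3.54 ± 0.53 (SE, edgeR adjusted p = 6.92e-05). Hoxb2 held 0.194, 0.363 and 0.242 CPM in cardiomyocytes, against 7.39, 6.67 and 5.51 CPM in nonmyocytes. Every nonmyocyte library of Hoxb2 exceeded every cardiomyocyte library more than 10 times, and the log2 fold change was -4.48 ± 0.52 (SE, edgeR adjusted p = 6.22e-06). Because 75.3% of the exon bases of Hoxb2 are shared with other annotated genes, its level is uncertain.

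In Hoxa the genes with the most counts were Hoxa3, which is needed for the thymus and parathyroid glands, and Hoxa5, which is needed for the lung. Hoxa3 held 0.194, 1.09 and 0.582 CPM in cardiomyocytes, against 15.3, 4.73 and 6.98 CPM in nonmyocytes. Nonmyocyte library 1 stood well above the other 2, and 36.4% of the exon bases of Hoxa3 are shared, so its level is uncertain too. Its log2 fold change was -3.66 ± 0.58 (SE, edgeR adjusted p = 0.000117). Hoxa5 held 0.775, 0.311 and 1.12 CPM in cardiomyocytes, against 11.6, 6.38 and 7.76 CPM in nonmyocytes. Library 1 was again highest in nonmyocytes, and the log2 fold change was -3.54 ± 0.52 (SE, edgeR adjusted p = 5.58e-05).

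Not corrected for length, Hoxa2, Hoxa4, Hoxa7, Hoxb5, Hoxb6, Hoxd8 and Hoxd9 averaged from 2.18 CPM (Hoxb6) to 4.06 CPM (Hoxd8) in nonmyocytes. In cardiomyocytes they averaged from 0.104 CPM (Hoxd9) to 0.427 CPM (Hoxa7). The largest fold change among these 7 was that of Hoxb6, a gene of the trunk, at -4.43 ± 0.82 (SE, edgeR adjusted p = 0.000386). The smallest was that of Hoxa7, which helps to pattern the trunk, at -2.47 ± 0.72 (SE, edgeR adjusted p = 0.00914). Hoxa7 held 0.194, 0.311 and 0.776 CPM in cardiomyocytes, against 3.81, 3.09 and 1.09 CPM in nonmyocytes, so that its fractions came close in single libraries. Without nonmyocyte library 1 its adjusted p was 0.0643, and without cardiomyocyte library 2 that of Hoxa2 was 0.0535 (edgeR). In all other alternatives these 14 genes kept an adjusted p under 0.05.

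**Figure D2:**
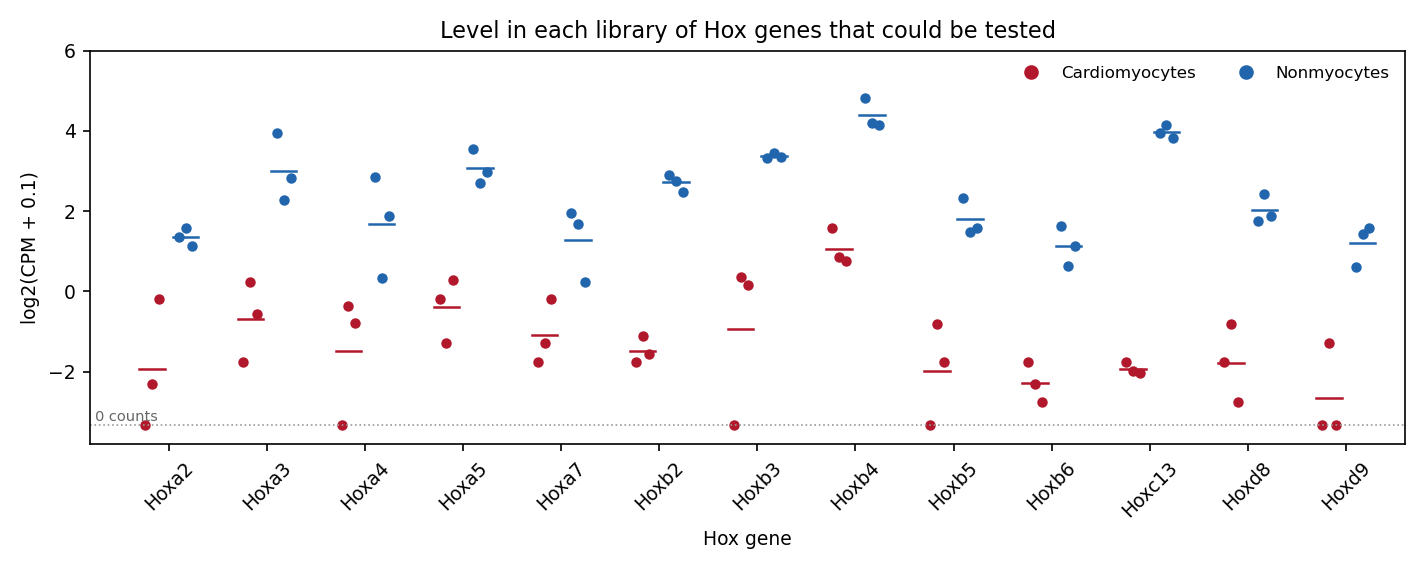
Level of 13 tested Hox genes in every library as log2(CPM + 0.1), with cardiomyocytes (red) left of nonmyocytes (blue); points are libraries, short lines are means of the 3 log values and the dotted line marks 0 counts. The fractions do not overlap for any of these 13 genes, and Hoxc13 shows the widest gap with a log2 fold change of -6.57.

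The 25 genes that were not tested include 14 of the 16 with paralog numbers from 9 to 13. Of the 25, 12 had more than 3 counts over the nonmyocyte libraries, and they are described by their counts alone. Hoxb9, a gene of the trunk, had no count in cardiomyocytes and 18, 2 and 10 counts in nonmyocytes, most of them in library 1. Hoxc6 likewise had none in cardiomyocytes and 28, 9 and 6 counts in nonmyocytes, so that 28 of its 43 counts came from library 1. Hoxb7 had 0, 1 and 0 counts in cardiomyocytes, against 27, 13 and 5 counts in nonmyocytes, and its pooled level was 55.4 times higher in nonmyocytes (exact 95% counting interval 9.45 to 2236).

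Hoxa6 was counted in all 6 libraries, at low and overlapping levels. It had 3, 7 and 4 counts in cardiomyocytes, against 11, 3 and 2 counts in nonmyocytes. These are 0.581, 0.363 and 0.194 CPM in cardiomyocytes and 0.821, 0.290 and 0.155 CPM in nonmyocytes, so the cardiomyocyte libraries lay within the range of the nonmyocyte libraries. The pooled nonmyocyte level was 1.41 times the cardiomyocyte level, with an exact 95% counting interval of 0.643 to 3.11. Hoxa6 lies between Hoxa5 and Hoxa7, both of which were lower in cardiomyocytes, and 45.1% of its exon bases are shared with other annotated genes. Whether Hoxa6 differs from these neighbours was not tested. Hoxd3, Hoxd10, Hoxb8 and Hoxc5 also had more counts in nonmyocytes, with 30, 27, 25 and 14 over the 3 libraries, against 3, 0, 0 and 0 in cardiomyocytes. For Hoxd3 these were 16, 13 and 1 counts in nonmyocytes, against 0, 1 and 2 in cardiomyocytes, so its fractions overlapped. Of the exon bases of Hoxd3, 35.8% are shared. Hoxb13, Hoxc9 and Hoxd11 were counted in 1 nonmyocyte library each. Hoxa13, Hoxb1, Hoxc8 and Hoxd4 had from 1 to 3 counts in nonmyocytes, and Hoxc10 had 2 counts in 1 cardiomyocyte library and none in nonmyocytes.

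The order along each cluster was then compared per length. No row whose exon bases are all shared with other genes held a count (0 of 6532 such rows), so levels were divided by the kilobases of exon that a gene shares with none. Hoxb4 stood at 0.970 CPM per kb in cardiomyocytes and at 10.03 ± 2.79 CPM per kb in nonmyocytes (SD, n = 3). Hoxc13 stood at 0.0678 CPM per kb in cardiomyocytes and at 6.46 ± 0.781 CPM per kb in nonmyocytes. The nonmyocyte libraries of Hoxc13 lay between 5.77 and 7.31 CPM per kb, below the lowest of Hoxb4 at 8.25 CPM per kb.

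Next in nonmyocytes came Hoxa5 at 4.57 ± 1.43 CPM per kb and Hoxb3 at 4.35 ± 0.183 CPM per kb (SD, n = 3). The libraries of Hoxa5 ran from 3.40 to 6.16 CPM per kb, a range that overlapped those of both Hoxc13 and Hoxb3. Within each nonmyocyte library Hoxc13 lay above Hoxa5, though by little in library 1, at 6.29 against 6.16 CPM per kb. Hoxa5 lay above Hoxb3 in library 1 and below it in libraries 2 and 3, so the order of Hoxa5 and Hoxb3 is not settled. Hoxb2 stood at 18.2 ± 2.65 CPM per kb of unshared exon, but only 358 of its bases are unshared, and over all its exon bases it stood at 4.49 CPM per kb. Its place in the order therefore depends on how shared bases are counted.

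**Figure D3:**
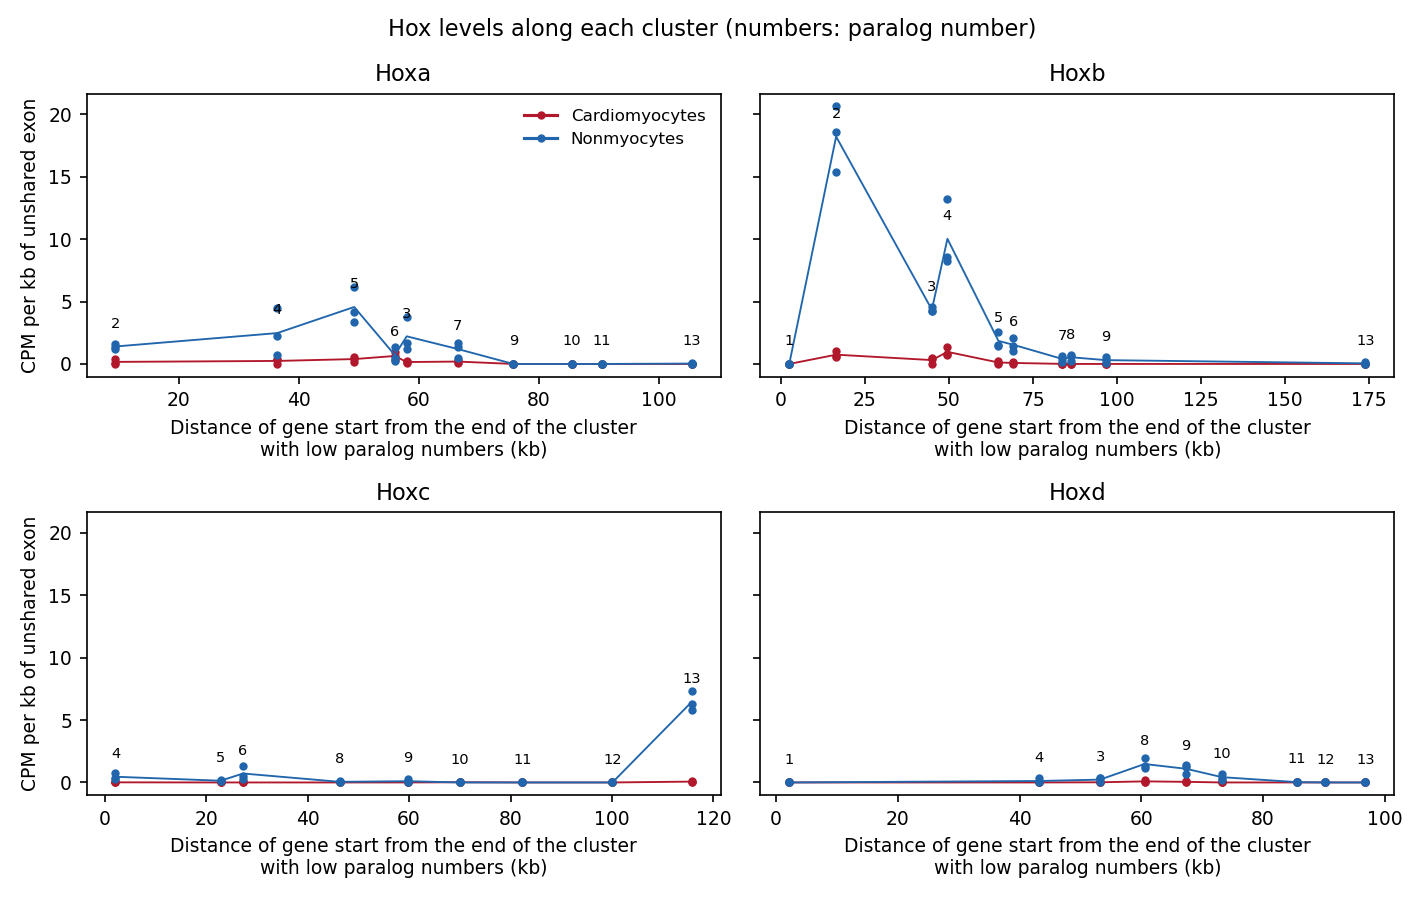
Level per kilobase of unshared exon against the distance of each gene's start from the low-numbered end of its cluster, one panel per cluster; points are libraries, lines join the means, red is cardiomyocytes, blue is nonmyocytes and the numbers are paralog numbers. Nonmyocyte levels of Hoxa lie near 0 from paralog number 9 on, those of Hoxb are highest at 2 and 4, those of Hoxc stand out at 13, and those of Hoxd are highest at 8.

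The stretch of genes present in nonmyocytes differed between the clusters. In Hoxa, 6 of 11 genes reached 1 CPM in every nonmyocyte library, all with paralog numbers of 7 or less. Hoxa7 was detected in all 3 nonmyocyte libraries, while Hoxa9, which lies 1245 bases further on, had no count in any of the 6 libraries. Only 0.706% of the exon bases of Hoxa9 are shared with other genes, so its 3518 unshared bases would have been countable. Hoxa10 and Hoxa11, known from the limb and the uterus, also had no count in any library, with 47.3% and 33.3% of their exon bases shared, and Hoxa13 had 3 counts in nonmyocyte library 1 alone.

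In Hoxb, 5 of 10 genes reached 1 CPM in every nonmyocyte library, namely Hoxb2 to Hoxb6. Hoxb1, a gene of the hindbrain, had a single count in nonmyocytes although its neighbour Hoxb2 was high. Genes beyond Hoxb6 had fewer counts, with nonmyocyte means of 1.22 CPM for Hoxb7, 0.700 CPM for Hoxb8 and 0.771 CPM for Hoxb9. Hoxb13, which lies 74.1 kb from Hoxb9, had 4 counts in nonmyocyte library 3 and none elsewhere.

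In Hoxd, only Hoxd8 and Hoxd9 reached 1 CPM in every nonmyocyte library. Hoxd8 averaged 0.236 ± 0.212 CPM in cardiomyocytes and 4.06 ± 1.10 CPM in nonmyocytes (SD, n = 3), and Hoxd9 averaged 0.104 ± 0.179 CPM in cardiomyocytes and 2.30 ± 0.774 CPM in nonmyocytes. Hoxd10 reached 0.739 CPM in nonmyocytes, while Hoxd12 and Hoxd13, which shape the digits in the embryo, and Hoxd1 had no count in any library. Hoxc had a single gene at that level, Hoxc13, and its next highest gene was Hoxc6 at 1.14 CPM in nonmyocytes.

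Summed by paralog number over the clusters, with no correction for length, group 4 had the most counts in both fractions. Its genes held 2.91, 2.38 and 2.13 CPM in cardiomyocytes, against 35.8, 20.4 and 22.4 CPM in nonmyocytes. Of the 15 genes numbered 4 to 8, 7 reached 1 CPM in every nonmyocyte library, as did 5 of the 8 numbered 1 to 3. Of the 16 genes numbered 9 to 13 only Hoxc13 and Hoxd9 did, and 8 of the 16 had no count in nonmyocytes. Without Hoxc13 the genes numbered 10 to 13 summed to under 2 CPM in every nonmyocyte library.

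Within group 4 the nonmyocyte level per kb of unshared exon was 10.03 CPM for Hoxb4, 2.47 CPM for Hoxa4, 0.458 CPM for Hoxc4 and 0.116 CPM for Hoxd4. Hoxa4 held 0, 0.673 and 0.485 CPM in cardiomyocytes, against 7.09, 1.16 and 3.57 CPM in nonmyocytes, a spread among nonmyocyte libraries of 75.7% of their mean. Hoxc4 had 0, 0 and 1 counts in cardiomyocytes, against 6, 6 and 16 counts in nonmyocytes. Hoxd4 had no count in cardiomyocytes and 0, 3 and 0 counts in nonmyocytes, with 67.5% of its exon bases shared. The DNA before the RefSeq start of Hoxb4, Hoxc4 and Hoxd4 is shown because these paralogs differ in level. Capitals mark matches, on either strand, to AGGTCA, which is known as a half-site of retinoic acid receptors. They also mark matches to the CCAAT box, to the TATA box spelled TATAAA, and to TGATNNAT, a joint site of Pbx and Hox proteins. The windows are 250 bases long and end just before the start, in GRCm38.p6 on the + strand. They are chr11:96318017-96318266 for Hoxb4, chr15:103034145-103034394 for Hoxc4 and chr2:74721728-74721977 for Hoxd4.
Hoxb4: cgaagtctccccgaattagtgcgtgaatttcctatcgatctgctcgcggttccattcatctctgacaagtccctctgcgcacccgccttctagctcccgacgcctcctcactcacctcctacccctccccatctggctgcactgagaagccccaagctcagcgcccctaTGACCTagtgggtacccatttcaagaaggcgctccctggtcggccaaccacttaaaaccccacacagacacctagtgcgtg
Hoxc4: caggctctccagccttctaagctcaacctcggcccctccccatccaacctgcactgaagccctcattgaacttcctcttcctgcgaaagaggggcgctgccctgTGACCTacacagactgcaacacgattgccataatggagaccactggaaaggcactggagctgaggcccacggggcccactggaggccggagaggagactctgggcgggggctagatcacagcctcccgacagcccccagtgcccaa
Hoxd4: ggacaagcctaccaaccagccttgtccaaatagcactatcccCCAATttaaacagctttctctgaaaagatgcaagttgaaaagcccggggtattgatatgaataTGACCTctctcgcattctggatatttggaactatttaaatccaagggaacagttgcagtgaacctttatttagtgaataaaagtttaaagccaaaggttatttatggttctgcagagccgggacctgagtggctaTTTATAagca
All 3 windows hold AGGTCA or its complement, and only that of Hoxd4 holds CCAAT and TATAAA as well. RefSeq windows were found for 22 of the Hox genes, 24 windows in all. AGGTCA stood in 6 of the 24 Hox windows and in 14% of 32851 windows of all genes, CCAAT in 14 and in 33.8%, TATAAA in 4 and in 12.4%, and TGATNNAT in 4 and in 7.68%. The motifs were counted independently of each other and overlaps were allowed. The Hox windows held a median of 12.5 CG pairs, against 6 over all windows. These letters do not show which factor is bound.

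The microRNAs of the clusters were measured in separate small RNA libraries. Small RNA totals ran from 412739 to 6311625 counts in cardiomyocytes and from 83170 to 1255622 in nonmyocytes. The table held 9 arms of 6 such microRNA genes, of which miR-10a-5p and miR-10b-5p could be tested. Of these 2, 1 was lower in cardiomyocytes, as were 33.8% of all arms tested. None was higher, also at an unadjusted p under 0.05, with DESeq2 or with limma voom, against 19% of all arms tested.

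miR-10a lies 1488 bases from Hoxb4 on chromosome 11 (5p arm 96178500 to 96178522, mm9). Its 5p arm held 5535, 9947 and 18813 CPM in cardiomyocytes, against 15273, 10803 and 6210 CPM in nonmyocytes. The fractions overlapped throughout, where those of Hoxb4 did not. The log2 fold change was 0.09 ± 0.59 (SE, edgeR adjusted p = 0.911), with a 95% interval of -1.30 to 1.48. With scaling by library totals it was -1.57 (edgeR adjusted p = 0.0413), so the call and the direction depend on the scaling. Hoxb4 stood at -3.47, and the difference between the assays was not tested.

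miR-10b lies on chromosome 2 (5p arm 74564131 to 74564153, mm9), within the annotated spans of Hoxd3 and Hoxd4. Its 5p arm held 3545, 2588 and 4031 CPM in cardiomyocytes, against 9977, 9391 and 6285 CPM in nonmyocytes. All cardiomyocyte libraries lay below all nonmyocyte libraries, with a log2 fold change of -1.34 ± 0.41 (SE, edgeR adjusted p = 0.0282). This call was lost when any nonmyocyte library was left out, with adjusted p of 0.430, 0.112 and 0.0655 (edgeR) without libraries 1, 2 and 3. Without cardiomyocyte library 2 the adjusted p was 0.107, and with no filter on low counts it was 0.0968 (edgeR). In cardiomyocytes miR-10b-5p ranked 38 among 850 arms. In the separate libraries of polyadenylated RNA Hoxd4 had no count in cardiomyocytes and Hoxd3 had 0, 1 and 2 counts. The other 7 arms, of miR-196a, miR-196b, miR-615 and the 3p arms of miR-10, had at most 38 counts in any library and were not tested.

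**Figure D4:**
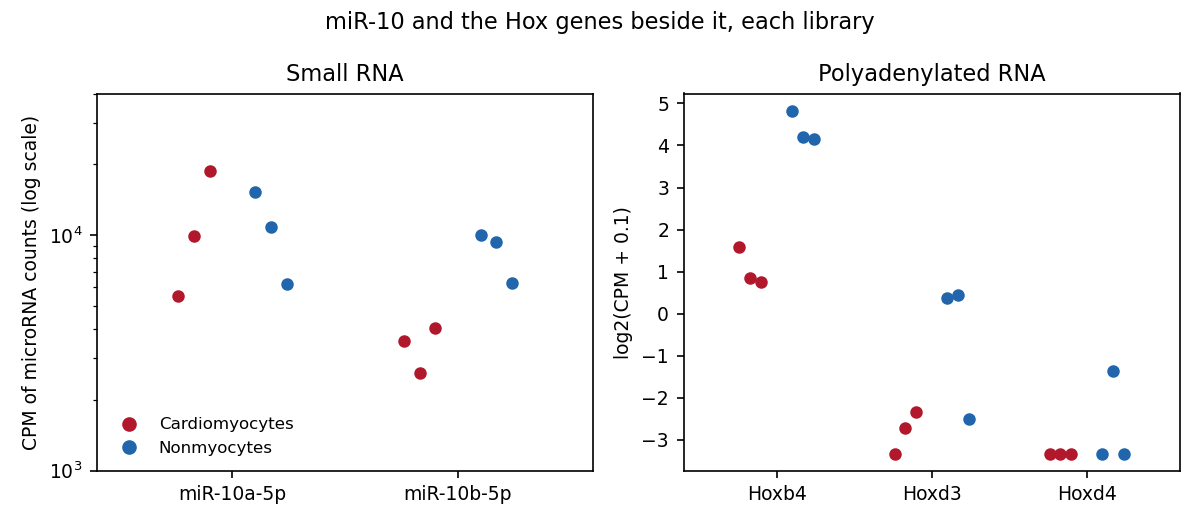
Level in each library of the miR-10 5p arms (left, CPM of microRNA counts on a log scale) and of the Hox genes nearest to them (right, log2(CPM + 0.1)), with cardiomyocytes (red) left of nonmyocytes (blue). miR-10a-5p overlaps between the fractions while Hoxb4 does not. Hoxd4, with 67.5% of its exon bases shared, lies at 0 counts in 5 of 6 libraries of polyadenylated RNA. In the separate small RNA libraries miR-10b-5p is at 2588 CPM of microRNA counts or more in every one.

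Most other genes inside the clusters were too low to test. Of 51 annotated non-Hox genes that overlap the clusters, 4 were tested, 3 of these were lower in cardiomyocytes and none was higher, also at an unadjusted p under 0.05, with DESeq2 or with limma voom. Over all genes tested 32.1% were lower and 31.6% higher, and the 4 had at most 17 counts over the cardiomyocyte libraries, so that they passed the filter through the nonmyocytes. Hoxb3os, an opposite-strand transcript in Hoxb, had 0, 2 and 2 counts in cardiomyocytes, against 44, 28 and 33 counts in nonmyocytes. Its log2 fold change was -4.91 ± 0.77 (SE, edgeR adjusted p = 9.71e-05), and 61.5% of its exon bases are shared. The noncoding transcript n343393 in Hoxa had 0, 1 and 6 counts in cardiomyocytes, against 57, 30 and 56 counts in nonmyocytes, and its log2 fold change was -4.62 ± 0.77 (SE, edgeR adjusted p = 0.000156). The other call was 5730596B20Rik in Hoxa, at -3.78 ± 0.96 (SE, edgeR adjusted p = 0.00385). The tested gene not called was n284716 in Hoxb, at -1.50 ± 0.83 (SE, edgeR adjusted p = 0.133). It was lower with scaling by library totals and without cardiomyocyte library 1, at adjusted p of 0.0461 and 0.00788 (edgeR). With limma voom it was lower too, at an adjusted p of 0.0203.

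Neighbours were the 3 nearest genes with an Ensembl identifier on each side of each cluster, so other annotated genes were passed over. Of these 24 genes 17 were tested, and 5 were higher in cardiomyocytes and 4 lower. Over all genes tested 31.6% were higher and 32.1% lower. The highest fold change was that of Atp5g1, a subunit of the mitochondrial ATP synthase beside Hoxb, at 4.62 ± 0.23, and the lowest that of Snx10, a sorting nexin beside Hoxa, at -2.99 ± 0.50 (SE, both edgeR adjusted p under 0.05). Evx1, a homeobox gene next to Hoxa13, had 5 counts in a single nonmyocyte library and none in cardiomyocytes.

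Hox proteins bind DNA together with cofactors of the Pbx, Meis and Pknox families, and most of these were counted in both fractions. Pbx4 had no count in cardiomyocytes and 25, 7 and 6 counts in nonmyocytes, and was not tested. Of 9 such genes 7 were tested, and 2 of these rose in cardiomyocytes, 2 fell and 3 did not pass the test, against 31.6% higher and 32.1% lower over all genes tested. Pbx2 held 32.7 ± 4.42 CPM in cardiomyocytes and 45.9 ± 7.83 CPM in nonmyocytes (SD, n = 3), with a log2 fold change of -0.49 ± 0.20 (SE, edgeR adjusted p = 0.0436). That call was lost with no filter on low counts, without cardiomyocyte library 2 or 3 and without any nonmyocyte library, with adjusted p from 0.0666 to 0.279 (edgeR). Meis1 held 36.2 ± 9.74 CPM in cardiomyocytes and 22.8 ± 2.15 CPM in nonmyocytes, at 0.68 ± 0.23 (SE, edgeR adjusted p = 0.0207), a direction that turned to -0.017 with scaling by library totals. Without cardiomyocyte library 2 or 3 the Meis1 call was lost, at adjusted p of 0.125 and 0.0790 (edgeR). Meis2 did not pass the test, with 27.7 CPM in cardiomyocytes and 25.8 CPM in nonmyocytes, but was lower with scaling by library totals, at -0.57 (edgeR adjusted p = 0.0142). The largest change was that of Meis3, with 6.43 CPM in cardiomyocytes and 33.1 CPM in nonmyocytes, at -2.38 ± 0.28 (SE, edgeR adjusted p = 6.65e-06). Pknox1 is listed at 0 in every library, and all its exon bases are shared with other genes.

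**Figure D5:**
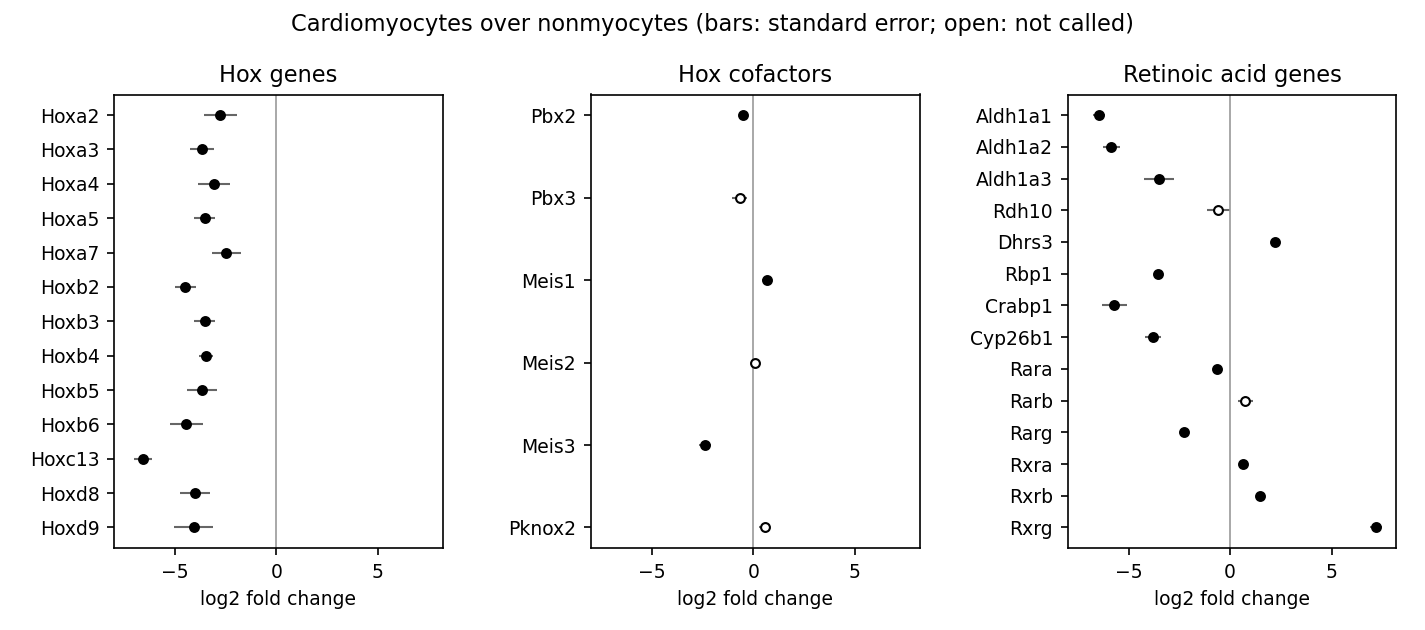
Log2 fold change of cardiomyocytes over nonmyocytes with its standard error for 13 tested Hox genes (left), 6 Hox cofactors (middle) and retinoic acid genes (right); filled points were called and open points were not. The 13 Hox genes lie below 0, the cofactors lie on both sides, and the retinoic acid genes run from Aldh1a1 at -6.47 to Rxrg at 7.19.

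Retinoic acid, made from vitamin A, is known to switch on Hox genes with low numbers in the embryo. Of 18 genes of its synthesis, breakdown and reception 14 were tested, 8 were lower in cardiomyocytes and 4 higher, against 32.1% lower and 31.6% higher over all genes tested. Aldh1a1, an enzyme that makes retinoic acid, held 6.41 ± 3.01 CPM in cardiomyocytes and 600 ± 17.8 CPM in nonmyocytes (SD, n = 3), at -6.47 ± 0.29 (SE, edgeR adjusted p = 7.53e-10). Cyp26b1, which breaks it down, was lower too, at -3.78 ± 0.39. Among the receptors Rara and Rarg were lower in cardiomyocytes, at -0.62 ± 0.20 and -2.29 ± 0.18, while Rxrg was higher, with 135 ± 8.18 CPM in cardiomyocytes and 0.886 ± 0.517 CPM in nonmyocytes, at 7.19 ± 0.31. Rxrb was higher as well, with 86.6 CPM in cardiomyocytes and 31.1 CPM in nonmyocytes, at 1.47 ± 0.18, and Rarb did not pass the test. Rxra was also higher, with 197 CPM in cardiomyocytes and 127 CPM in nonmyocytes, at 0.64 ± 0.16, but stood at -0.0318 with scaling by library totals. Dhrs3, which turns retinal back to retinol, was higher in cardiomyocytes at 2.21 ± 0.17 (SE, all edgeR adjusted p under 0.05).

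Polycomb proteins keep Hox genes silent and trithorax proteins keep them active. All 28 Polycomb genes were tested, of which 6 rose and 11 fell in cardiomyocytes, against 31.6% higher and 32.1% lower over all genes tested. Cbx7, a reader of the repressive mark, had the largest rise at 2.78 ± 0.33, and Ezh2, the enzyme that sets it in dividing cells, the largest fall at -1.82 ± 0.36 (SE, both edgeR adjusted p under 0.05). The most abundant were Cbx6, Phc2 and Pcgf3, all lower in cardiomyocytes. The Phc2 call was lost without cardiomyocyte library 2 or 3 and without any nonmyocyte library, with adjusted p from 0.0587 to 0.106 (edgeR). Of 13 trithorax genes, all tested, 2 rose and 1 fell, below the shares over all genes. Kdm6a, a demethylase, stood at 1.99 ± 0.38, and Psip1, a chromatin-bound coactivator, at -1.63 ± 0.43 (SE, both edgeR adjusted p under 0.05). The most abundant, Mll2, Mll1 and Kdm6b, did not pass the test, with log2 fold changes of 0.36, 0.06 and 0.12. Without nonmyocyte library 1, Mll2 was higher in cardiomyocytes at 0.63 and Kdm6b at 0.54 (edgeR adjusted p of 0.0283 and 0.0337). Mll2 was also higher with no filter on low counts, at an adjusted p of 0.0405 (edgeR), while Mll1 was lower with scaling by library totals, at -0.59 (edgeR adjusted p = 0.0163).

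Other homeobox genes related to Hox were mostly too low to test. Of 13 such genes only Meox1 and Meox2, which act in muscle precursors and vessels, could be tested. Both were higher in cardiomyocytes, as were 31.6% of all genes tested. Endothelial markers also summed higher there, at 360 to 755 CPM against 77.3 to 88.5 CPM in nonmyocytes. The part of other cell types in the Meox levels was not tested. Meox2 had 3, 6 and 8 counts in nonmyocyte libraries 1 to 3, so it passed the filter through its cardiomyocyte level. Meox2 held 11.9 CPM in cardiomyocytes and 0.475 CPM in nonmyocytes, at 4.66 ± 0.50, and Meox1 held 14.6 CPM in cardiomyocytes and 2.78 CPM in nonmyocytes, at 2.40 ± 0.40 (SE, both edgeR adjusted p under 0.05).

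The Hox counts of the cardiomyocyte libraries stand beside fibroblast transcripts in the same libraries. The 9 fibroblast markers summed to 185, 242 and 205 CPM in cardiomyocyte libraries 1 to 3, against 8330, 8266 and 9868 CPM in nonmyocyte libraries 1 to 3, and none of the 9 was at 0 in either fraction. For the 8 fibroblast markers at 1 CPM or more in nonmyocytes, the cardiomyocyte mean was from 1.51% to 19.2% of the nonmyocyte mean, with a median of 3.52%. For the 16 Hox genes at that level it was from 0% to 16.0%, with a median of 6.05%. Both sets were cut by their nonmyocyte level, which favours low percentages. The cut left out Lum, with 1.01 CPM in cardiomyocytes and 0.484 CPM in nonmyocytes. It also left out Hoxa6, with 0.379 CPM in cardiomyocytes and 0.422 CPM in nonmyocytes. The part of fibroblast RNA in the Hox levels of cardiomyocytes was not tested.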

How the data were processed

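The authors deposited 2 tables of whole-number counts, one per gene for polyadenylated RNA and one per microRNA arm for small RNA, with 3 libraries of each cell fraction in each. Per the submitters' processing notes the tools were TopHat 1.3.0, Bowtie, HTSeq, DESeq and edgeR, with mouse build mm9 (NCBIM37). Libraries were single-end and did not keep the strand, per the labels' protocols. How reads on shared exon bases were counted is not given in the sources used here.

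The Hox genes, the other lists and the rule for named genes were chosen with earlier results of these data known. Hox genes of 5 CPM or more in the higher fraction are given library by library. From the cofactor, retinoic acid, Polycomb and trithorax lists the 3 most abundant genes and the largest called fold each way are named. From the remaining lists only some of these are named, and other genes were chosen after their values were seen. Counts were tested over the whole table with edgeR 4.0.16 (quasi-likelihood, robust, TMM scaling, a minimum count of 10, two-sided) in R 4.3.3, with Benjamini-Hochberg adjustment, and with limma 3.58.1 and DESeq2 1.42.0 as alternatives. The test was also run on simulated data, with far fewer changed genes than were called here. The simulated spread was near that of polyadenylated RNA, which had a biological coefficient of variation of 0.251. That of small RNA was 0.639, so the simulation does not cover the microRNA calls. Some single items are not reported here. The row of totals in the small RNA table was left out. Library numbers are not tied to single hearts in the labels, and the fit reported here had no replicate block, which was tried as an alternative. The labels do not say that each library came from its own heart, so the spread behind the p-values may be technical.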

Additional observations from a re-analysis of the deposited data

How the results depend on the processing

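All 14 Hox genes tested were lower in cardiomyocytes with every scaling, tool and replicate block tried, and 14 to 20 were lower over all alternatives, with 20 of 31 tested when no filter on low counts was used. None was higher in any alternative. A threshold of 2 CPM left 0 Hox genes present in every cardiomyocyte library, and leaving out a library gave 1 to 2. Scaling by library totals moved the median of all genes by -0.68 on the log2 scale, and 30.9% of its calls were higher in cardiomyocytes, against 49.6% with TMM. It gave 4 lower and 0 higher cofactors, 3 higher Polycomb genes, 6 lower trithorax genes, 7 lower neighbours and 2 lower microRNA arms. It turned miR-10a-5p to -1.57 (edgeR adjusted p = 0.0413), Meis1 to -0.017, Meis2 to -0.57, Mll1 to -0.59 and Rxra to -0.0318. A test against a 2-fold change left 1 lower and 0 higher cofactors, 3 lower and 3 higher Polycomb genes, 0 lower trithorax genes, 2 lower neighbours and 0 lower microRNA arms, and it lost Pbx2, Meis1, Phc2, Cbx6, Psip1 and Rxra. With no filter there were 4 higher trithorax genes, 8 lower genes inside the clusters and 3 lower microRNA arms. Those 3 arms did not include miR-10b-5p, which lost its call there at an adjusted p of 0.0968 (edgeR). Leaving out 1 library gave 1 to 2 lower and 0 to 3 higher cofactors, 7 to 12 lower Polycomb genes, 2 to 4 higher trithorax genes, 3 to 5 lower genes inside the clusters and 0 to 1 lower microRNA arms. The cause of these moves was not tested. Over all genes, 50.2% of the calls against a 2-fold change were higher in cardiomyocytes, and 53.6% of those with no filter. The share of all genes called in each alternative was not set beside these counts. The counts therefore do not show how the Hox genes or the lists compare with all genes there. The replicate block gave 0 lower microRNA arms, with miR-10b-5p at an adjusted p of 0.0691 (edgeR), Mll2 as higher at an adjusted p of 0.0447 (edgeR), and 14 lower Hox genes. Deviations of same-numbered libraries of polyadenylated RNA correlated at 0.162, 0.0504 and 0.1002, so the numbers were not shown to be pairs, and cardiomyocyte library 2 of polyadenylated RNA correlated best with another number. At these depths a Hox gene with no count may still be present below the floor of 3 counts.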

Other observations

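Nonmyocyte library 1 held the highest level of 11 of the 16 Hox genes that averaged 1 CPM or more in nonmyocytes, which is 68.8%, while it was the highest for 36.8% of all genes tested. Hoxa13, Hoxb1, Hoxc8, Hoxc9 and Hoxd11 had counts in nonmyocyte library 1 alone, Hoxd4 in library 2 alone and Hoxb13 in library 3 alone. The levels of Hoxa3 and Hoxa4 in nonmyocyte library 1 were 15.3 and 7.09 CPM, against 4.73 and 1.16 CPM in nonmyocyte library 2. Hoxc13 and Hoxb3 varied little over the same libraries.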
